A study of Sus scrofa with 4 samples.

Results

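The proteasome genes are the 42 genes of the deposited table, of 20491 in all, whose symbol is PSM followed by a letter from A to G and a number. The symbol alone decided membership and no measured value entered that rule, but the rule was set with earlier results of these data known. The RNA-seq libraries came from porcine granulosa cells of the follicle, the somatic cells that line the ovarian follicle around the oocyte. There were 2 libraries from cells transfected to interfere with YTHDF2, called siYTHDF2 here, and 2 from cells transfected with a negative control. YTHDF2 is a reader protein that binds N6-methyladenosine in mRNA and promotes decay of the bound transcript, and the series asks whether it mediates the action of BDNF on granulosa cell proliferation. All 4 libraries were transfected. BDNF exposure, the siRNA and the animals or cultures behind each library are not named in the labels. The p-values therefore cover library-to-library spread alone, and that spread may be technical.

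The proteasome is the protease complex that degrades proteins tagged with ubiquitin. Its barrel-shaped core is built from outer alpha rings and inner beta rings, and some beta subunits carry the active sites. A regulatory cap made of a base with ATPases and a lid binds the tagged protein, removes the ubiquitin, unfolds the protein and feeds it into the core. In immune cells and after interferon exposure, alternative catalytic subunits replace the constitutive ones to form the immunoproteasome, and PA28 activators can bind the core in place of the cap. Dedicated chaperones assemble core and base but are not part of the finished complex.

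By these roles the 42 genes comprised 7 alpha ring subunits, 1 constitutive catalytic subunit (PSMB7), 4 other beta subunits and 3 immunoproteasome catalytic subunits. The cap was represented by 6 base ATPases, 3 base subunits that are not ATPases and 8 lid subunits. The remaining genes were 4 activators, 1 inhibitor, 2 core assembly chaperones and 3 base assembly chaperones. Another 2 genes carry no symbol in the table but are described there as proteasome subunit beta 6 (PSMB6) and proteasome assembly chaperone 2 (PSMG2). They stand outside the 42 and are given beside them. PSMB5, PSMB11, PSMA8 and PSMG4 were not analysed here.

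Total counts were 47209177 and 54203550 for siYTHDF2 and 53331003 and 54841851 for control. YTHDF2 had 23.6 and 23.2 CPM in siYTHDF2 cells and 69.5 and 62.1 CPM in control cells, where CPM are counts scaled by TMM to a common library size. Among marker lists, granulosa cell markers summed to 2991 and 3102 CPM in siYTHDF2 cells and 3207 and 3043 CPM in control cells. GJA1, a gap junction gene, made up most of that sum. Several other granulosa markers were low: the highest value in any library was 11.5 CPM for FSHR, 6.49 for INHA, 6.38 for FOXL2 and 2.1 for AMH. GATA4 had at least 94.1 CPM and NR5A1 at least 28.9 CPM in every library. Of 15 tested granulosa markers 1 was higher and 1 was lower. SERPINE2 was higher, with 444 and 424 CPM in siYTHDF2 cells and 216 and 224 CPM in control cells. INHBB, an inhibin and activin subunit, was lower, with 19.2 and 18.4 CPM in siYTHDF2 cells and 31.8 and 29 CPM in control cells. Of 6 tested endothelial markers 1 was higher in edgeR and none in DESeq2. The granulosa marker CYP19A1, which encodes aromatase, was too low to test. Markers of theca and stroma summed to 11859 and 11473 CPM in siYTHDF2 cells and 20556 and 21205 CPM in control cells. The theca markers CYP17A1 and INSL3 were not found under those symbols, so the sum holds stroma markers alone. ACTA2 by itself had 6639 and 6286 CPM in siYTHDF2 cells and 12147 and 12801 CPM in control cells. Of the 10 tested stroma markers 7 were lower and 1 was higher in siYTHDF2 cells, and their part in the proteasome values was not tested. The higher one was DES, with 239 and 206 CPM in siYTHDF2 cells and 52.2 and 58.6 CPM in control cells. TAGLN and PDGFRB had log2 fold changes of -0.07 and -0.15 and were not called. In bulk RNA, fewer cells of a type and less RNA per cell cannot be told apart.

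Of the 42 proteasome genes 11 were higher in siYTHDF2 cells and none was lower. The threshold was 0.05 for the Benjamini-Hochberg adjusted p of edgeR, by its quasi-likelihood test. The 11 are 26.2% of the genes, against 9.05% called higher and 10.6% called lower among all 15552 genes tested. Most proteasome genes are abundant, and among the tested genes with a mean of at least 10 CPM 13.5% were called higher. The changes were small: all 11 called genes rose by less than 1.5-fold. At an unadjusted p under 0.05, 17 proteasome genes were higher and none lower, against 16.1% higher and 16.9% lower among all genes tested. DESeq2 called 13 higher, which is 31.0%, and none lower, against 11.5% higher among all genes it gave an adjusted p. The median log2 fold change was 0.11 over the 42 genes and 0.00 over all genes tested, and 36 of the 42 estimates were positive. The siYTHDF2 CPM of both libraries lay above both control libraries for 21 of the 42 genes, which is 50%, against 30.1% of all genes tested. All 42 passed the filter on low counts.

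**Figure D1:**
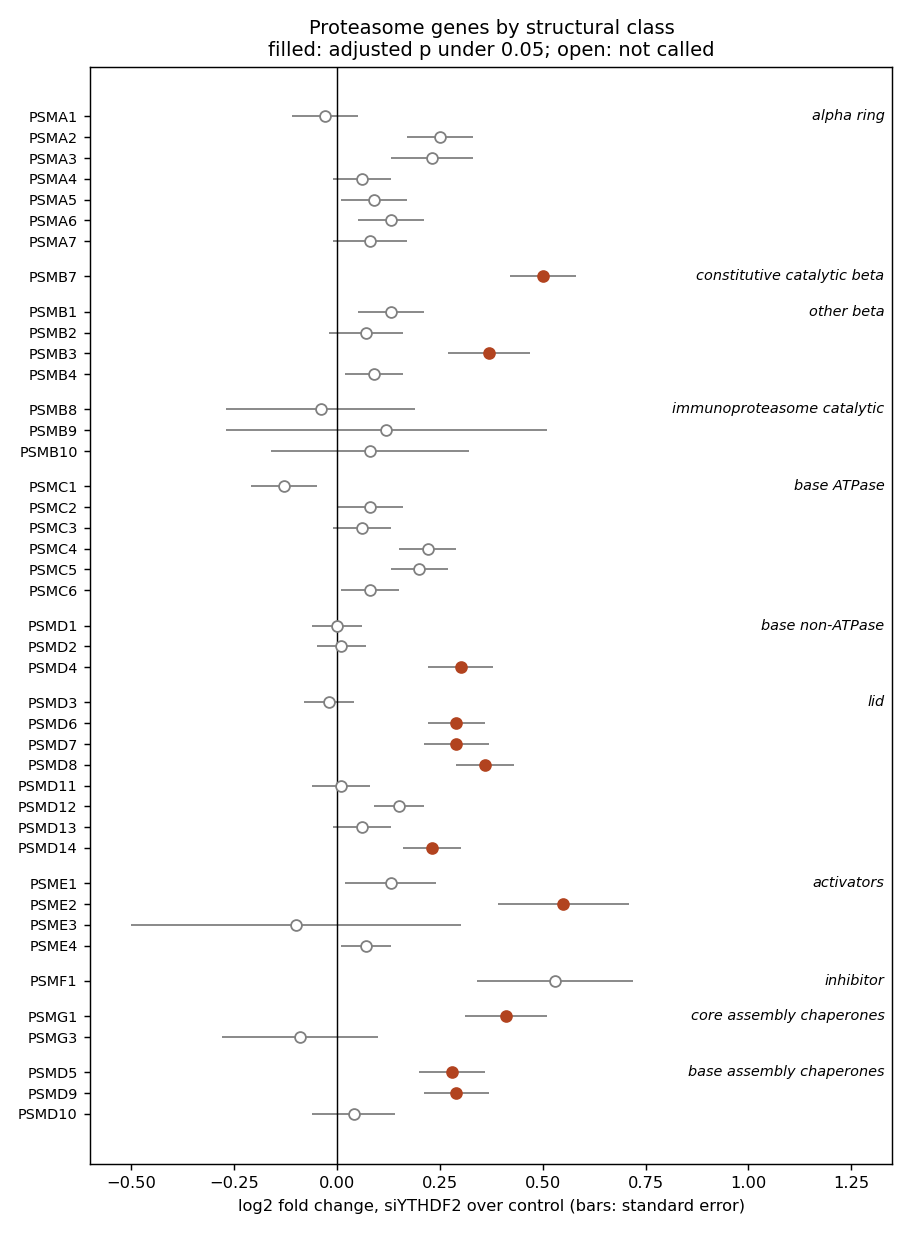
Log2 fold change of siYTHDF2 over control for each of the 42 proteasome genes, grouped by structural class; bars are standard errors, filled points have an adjusted p under 0.05 and open points do not. Called genes lie in the beta ring, the base, the lid, the activators and the assembly chaperones, while the 7 alpha ring genes and the 6 base ATPase genes have no filled point.

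The number of calls depended on which library was left out. Each of these fits had 1 group with a single library, and so less precision than the fit of all libraries. Without control replicate 1, 2 of the 42 genes were called higher, which is 4.76%, against 5.42% of all genes tested. Without siYTHDF2 replicate 1, 4 were higher and 1 was lower, and 4.85% of all genes were called higher. Without control replicate 2 the count was 11, which is 26.2%, against 7.94% of all genes. Without siYTHDF2 replicate 2 it was 9, which is 21.4%, against 7.58% of all genes. PSMB7 and PSMD8 were the 2 genes called in all 4 of these fits.

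The proteasome genes also moved together between the replicates of a group. Control replicate 1 lay below control replicate 2 for 36 of the 42 genes, against 53.4% of tested genes with a mean of at least 10 CPM. In the siYTHDF2 cells, replicate 1 lay above replicate 2 for 31 of the 42 genes, against 49.5% of those abundant genes. The summed CPM of the 42 genes was 5424 and 5086 in the siYTHDF2 libraries and 4671 and 4978 in the control libraries. The gap between siYTHDF2 replicate 2 and control replicate 2 was thus smaller than the gaps between replicates. On a log2 scale relative to each gene's mean over the 4 libraries, the median proteasome gene stood at 0.12 and 0.03 in siYTHDF2 cells and at -0.12 and 0.01 in control cells. The 31 genes that were not called stood at 0.07 and -0.01 in siYTHDF2 cells and at -0.11 and 0.02 in control cells. For the 11 called genes, which were chosen by this difference, the medians were 0.22 and 0.12 in siYTHDF2 cells and -0.22 and -0.10 in control cells.

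**Figure D2:**
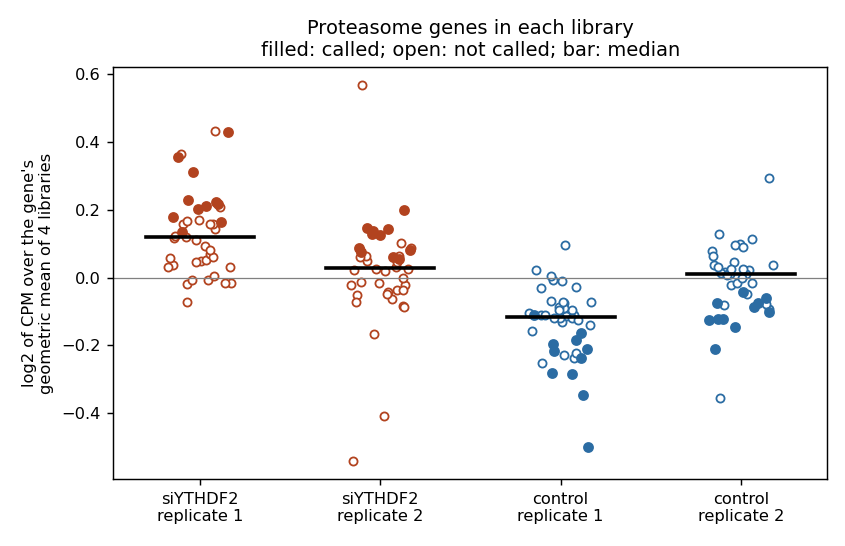
Each point is 1 of the 42 proteasome genes in 1 library, as log2 of its CPM over the geometric mean of the 4 libraries; bars are medians and filled points are the called genes. The medians are 0.12 and 0.03 in siYTHDF2 replicates 1 and 2 and -0.12 and 0.01 in control replicates 1 and 2, so both replicates 2 lie near 0.

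In the core, the constitutive catalytic gene PSMB7 had the smallest p of the 42 genes. PSMB7 encodes the beta subunit with trypsin-like activity and is ENSSSCG00000005590, on chromosome 1 from 265172237 to 265235387 on the minus strand in the deposited table. Its counts were 8823 and 8746 in siYTHDF2 cells and 6262 and 6737 in control cells. PSMB7 had 185 and 159 CPM in siYTHDF2 cells and 119 and 125 CPM in control cells. Both siYTHDF2 libraries were above both control libraries. The log2 fold change was 0.50 (SE 0.08, adjusted p = 0.00343), a 1.41-fold difference.

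PSMB6, the catalytic subunit with caspase-like activity, had 109 and 94.9 CPM in siYTHDF2 cells and 79.2 and 90.3 CPM in control cells. The groups did not overlap, but the difference did not pass the threshold (log2 fold change 0.26, SE 0.09, adjusted p = 0.0729). PSMB6 passed it without control replicate 2 (adjusted p = 0.0274) and with siYTHDF2 replicate 2 left out (adjusted p = 0.0253).

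Among the beta subunits without an active site, PSMB3 rose. It had 86.4 and 72.7 CPM in siYTHDF2 cells and 57.2 and 65.7 CPM in control cells, with no overlap between groups (log2 fold change 0.37, SE 0.10, adjusted p = 0.032). PSMB3 lost its call without control replicate 1 (adjusted p = 0.131), and also without siYTHDF2 replicate 1 (adjusted p = 0.189). PSMB1, PSMB2 and PSMB4 had log2 fold changes of 0.13, 0.07 and 0.09 and were not called.

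No alpha ring gene was called in edgeR with TMM scaling and all 4 libraries. The alpha subunits form the gate through which substrates enter the core. Their log2 fold changes ran from -0.03 for PSMA1 to 0.25 for PSMA2, with a median of 0.09. PSMA2 had 179 and 172 CPM in siYTHDF2 cells and 136 and 158 CPM in control cells, an adjusted p of 0.058. PSMA3 had 168 and 148 CPM in siYTHDF2 cells and 122 and 147 CPM in control cells, an adjusted p of 0.128. In both genes the groups did not overlap, but the margin between them was smaller than the gap between the control replicates. These were the 2 alpha genes with an unadjusted p under 0.05, and DESeq2 called PSMA2 alone (adjusted p = 0.0298). Without control replicate 2, edgeR called PSMA2 (adjusted p = 0.0108) and PSMA3 (adjusted p = 0.0186) higher. It also called PSMA2 with no filter on low counts (adjusted p = 0.0319) and under total count scaling (adjusted p = 0.0322).

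In the lid, 4 of 8 genes were called higher. The share called higher was 9.05% over all genes tested and 13.5% among those with a mean of at least 10 CPM. Whether the lid differs from those genes was not tested. PSMD8, a lid subunit, had the largest lid change. It is ENSSSCG00000036658, on chromosome 6 from 47289886 to 47297051 on the plus strand. PSMD8 had 216 and 205 CPM in siYTHDF2 cells and 160 and 168 CPM in control cells. The 2 groups were apart by more than the gap within either of them. Its log2 fold change was 0.36 (SE 0.07, adjusted p = 0.00587).

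PSMD6 had 122 and 112 CPM in siYTHDF2 cells and 92.2 and 98.3 CPM in control cells (log2 fold change 0.29, SE 0.07, adjusted p = 0.0236). PSMD7, which pairs with the lid deubiquitinase, had 137 and 126 CPM in siYTHDF2 cells and 103 and 113 CPM in control cells (log2 fold change 0.29, SE 0.08, adjusted p = 0.0291). PSMD14 encodes that deubiquitinase, which cuts ubiquitin chains from the substrate. It had 133 and 122 CPM in siYTHDF2 cells and 109 and 108 CPM in control cells (log2 fold change 0.23, SE 0.07, adjusted p = 0.0452). In all 3 genes both siYTHDF2 libraries lay above both control libraries. The 3 calls were lost without control replicate 1 (adjusted p from 0.0962 for PSMD6 to 0.141 for PSMD7), and likewise without siYTHDF2 replicate 1 (adjusted p from 0.161 for PSMD6 to 0.313 for PSMD14). PSMD14 was also lost without control replicate 2 (adjusted p = 0.115).

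The other 4 lid genes were not called. PSMD12 had 154 and 157 CPM in siYTHDF2 cells and 141 and 140 CPM in control cells (log2 fold change 0.15, SE 0.06, adjusted p = 0.131). PSMD3, PSMD11 and PSMD13 had log2 fold changes of -0.02, 0.01 and 0.06, and their groups overlapped.

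In the base, the 6 ATPase genes PSMC1 to PSMC6 had no call in edgeR with TMM scaling or in DESeq2, and 2 of them had an unadjusted p under 0.05. Those 2 were PSMC4, with 98.1 and 91.7 CPM in siYTHDF2 cells and 80.6 and 82.5 CPM in control cells, and PSMC5, with 145 and 132 CPM in siYTHDF2 cells and 119 and 122 CPM in control cells. Their adjusted p were 0.0595 for PSMC4 and 0.0841 for PSMC5. Under total count scaling edgeR called both higher (adjusted p = 0.0313 for PSMC4 and 0.0421 for PSMC5). PSMC2, PSMC3 and PSMC6 had log2 fold changes of 0.08, 0.06 and 0.08 with overlapping groups. PSMC1 had the lowest estimate of the 42 genes. It had 171 and 149 CPM in siYTHDF2 cells and 170 and 181 CPM in control cells, so the groups overlapped (log2 fold change -0.13, SE 0.08, adjusted p = 0.303).

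PSMD4, a ubiquitin receptor of the base, rose. It had 106 and 95.2 CPM in siYTHDF2 cells and 79.6 and 83.1 CPM in control cells, with no overlap (log2 fold change 0.30, SE 0.08, adjusted p = 0.0236). The call was lost without control replicate 1 (adjusted p = 0.08), and likewise without siYTHDF2 replicate 1 (adjusted p = 0.178). The large scaffold subunits PSMD1 and PSMD2 did not follow it. PSMD2, with the highest CPM of the 42 genes, had 489 and 505 CPM in siYTHDF2 cells and 485 and 505 CPM in control cells (log2 fold change 0.01, SE 0.06, adjusted p = 0.97). PSMD1 had 225 and 231 CPM in siYTHDF2 cells and 226 and 229 CPM in control cells (log2 fold change 0.00, SE 0.06, adjusted p = 0.983). Whether lid and base differ in their response was not tested.

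**Figure D3:**
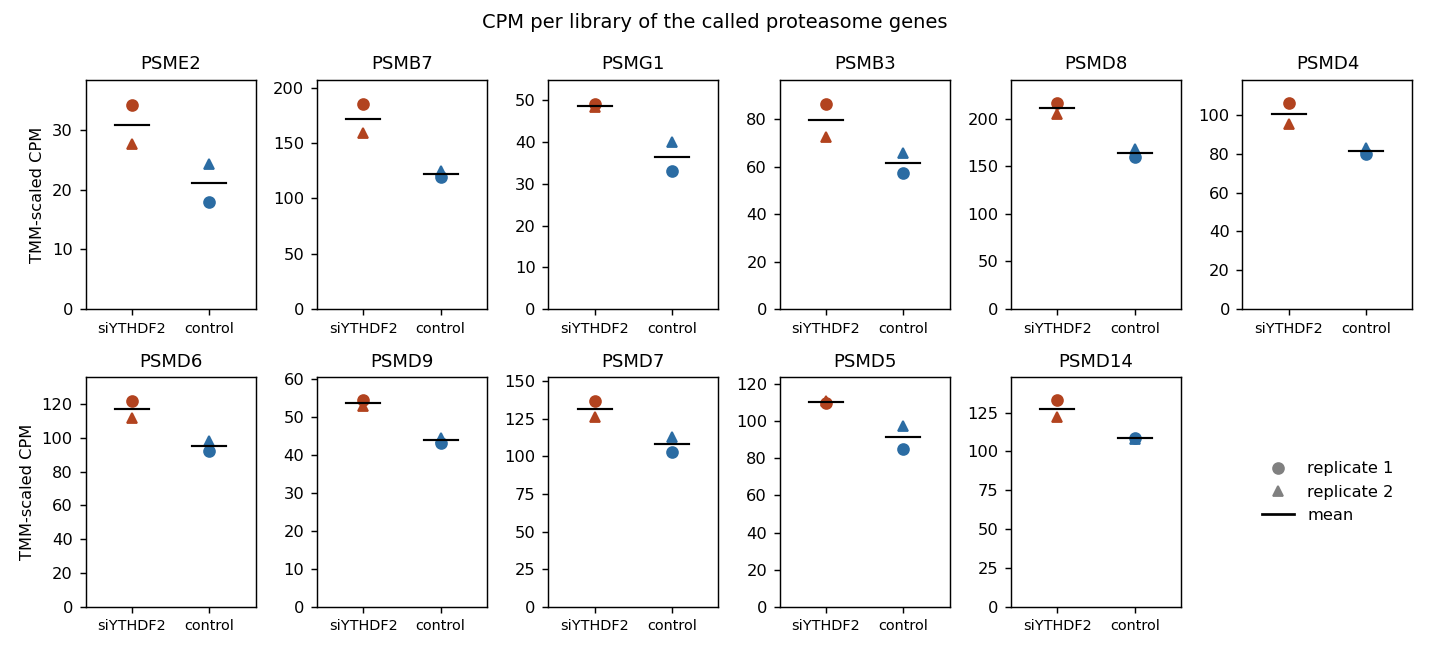
TMM-scaled CPM of the 11 called proteasome genes in each library, with circles for replicate 1, triangles for replicate 2 and a line at the group mean; axes start at 0. In every panel both siYTHDF2 points lie above both control points, and replicate 1 lies above replicate 2 in siYTHDF2 cells for 10 of the 11 genes and below it in control cells for 10 of the 11.

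The immunoproteasome catalytic genes were near the bottom of the range in every library. PSMB8, the counterpart of PSMB5, had 3.74 and 3.41 CPM in siYTHDF2 cells and 3.4 and 3.96 CPM in control cells. PSMB9, the counterpart of PSMB6, had 1.13 and 1.14 CPM in siYTHDF2 cells and 1.01 and 1.09 CPM in control cells. The PSMB9 values come from only 54 and 63 counts in siYTHDF2 cells and 53 and 59 counts in control cells. PSMB10, the counterpart of PSMB7, had 12.5 and 6.98 CPM in siYTHDF2 cells and 8.54 and 9.9 CPM in control cells. The PSMB10 replicates of siYTHDF2 cells differed by 1.79-fold and lay on either side of both control libraries. None of the 3 was called by edgeR or DESeq2, and none had an unadjusted p under 0.05. Their log2 fold changes were -0.04 (SE 0.23) for PSMB8, 0.12 (SE 0.39) for PSMB9 and 0.08 (SE 0.24) for PSMB10, and these standard errors are several times the 0.08 of PSMB7.

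PSMB8 and PSMB9 are neighbours in the deposited table, on chromosome 7 with 121 bases between them and on opposite strands. PSMB8 lies from 25058892 to 25062245 on the minus strand and PSMB9 from 25062367 to 25077523 on the plus strand. TAP1, on the minus strand from 25062771 to 25074843, lies within the span of PSMB9. TAP1 had 2197 and 2292 counts in siYTHDF2 cells and 2289 and 2180 counts in control cells. Whether strand was used in counting is not known here. Reads near the PSMB8 border or in the TAP1 overlap could thus fall to either gene. The share of such reads in the PSMB9 values was not tested.

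Per length, PSMB10 stood at 2.2% and 1.43% of the PSMB7 level in siYTHDF2 cells and at 2.34% and 2.59% in control cells, from the deposited FPKM. These percentages depend on the transcript lengths used by the authors, since PSMB10 had 198 counts for each FPKM and PSMB7 had 64.5. Without a length correction, PSMB10 had 12.5 and 6.98 CPM in siYTHDF2 cells beside 185 and 159 CPM for PSMB7. In control cells it had 8.54 and 9.9 CPM beside 119 and 125 CPM for PSMB7. The log2 ratio of PSMB10 to PSMB7 was -5.82 ± 0.44 in siYTHDF2 cells and -5.34 ± 0.10 in control cells (SD, n = 2 each). The difference of -0.47 had a two-sided exact permutation p of 0.333, the smallest that 2 against 2 libraries can give. In edgeR the log2 fold change was 0.50 for PSMB7 and 0.08 for PSMB10, so the ratio is not independent of the PSMB7 rise. The difference in the ratio also depended on the siYTHDF2 library. It was -0.78 without siYTHDF2 replicate 1 and -0.16 without siYTHDF2 replicate 2. PSMB9 stood at 1.4% and 1.63% of the PSMB6 level in siYTHDF2 cells and at 1.72% and 1.62% in control cells. The groups overlapped (two-sided exact permutation p = 0.667).

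Genes that act with the immunoproteasome did not move one way. Of 10 tested genes of antigen presentation by MHC class I 2 were lower, none was higher in edgeR, and at an unadjusted p under 0.05 3 were higher and 3 lower. DESeq2 called 1 higher and 2 lower. The lower ones encode the endoplasmic reticulum chaperone CALR, with 1515 and 1561 CPM in siYTHDF2 cells and 1843 and 1873 CPM in control cells, and the disulfide isomerase PDIA3, at a log2 fold change of -0.25 (SE 0.07). CALR lost its call without siYTHDF2 replicate 1 (adjusted p = 0.102), and PDIA3 lost it in 3 of the 4 fits that left out a library (adjusted p from 0.107 to 0.17). TAP1, a subunit of the peptide transporter, had 46.2 and 41.6 CPM in siYTHDF2 cells and 43.5 and 40.3 CPM in control cells and was not called. TAP2, the other transporter subunit, had 30.3 and 29.7 CPM in siYTHDF2 cells and 24.4 and 24.2 CPM in control cells. Neither TAP2 (log2 fold change 0.30, edgeR adjusted p = 0.0559) nor ERAP1 (0.28, edgeR adjusted p = 0.0674) was called, but their siYTHDF2 libraries lay above both control libraries. NLRC5, the activator of MHC class I genes, was at or below 0.426 CPM in every library. Of 17 tested interferon response genes 1 was higher and 3 were lower, against 9.05% higher and 10.6% lower among all genes tested. At an unadjusted p under 0.05, 2 were higher and 4 lower, against 16.1% and 16.9% of all genes tested. The groups did not overlap for 3 in the higher and 7 in the lower direction, against 4675 and 4658 of all 15552 genes tested. JAK1, a kinase of interferon receptors, fell by 0.67 on the log2 scale, and MX1, an interferon-induced antiviral gene, by 0.64, while the receptor gene IFNGR1 rose by 0.39.

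Immune cells carry immunoproteasomes. The leukocyte markers were low, and their relation to the PSMB8, PSMB9 and PSMB10 values was not tested. The 11 leukocyte markers in the table summed to 7.77 and 7.02 CPM in siYTHDF2 cells and 10.6 and 9.77 CPM in control cells. Of these sums CD14 alone had 4.18 and 2.99 CPM in siYTHDF2 cells and 5.39 and 5.38 CPM in control cells. PTPRC, the pan-leukocyte marker, had 0 and 4 counts in siYTHDF2 cells and 0 and 7 counts in control cells. None of the 6 tested leukocyte markers was called by edgeR or DESeq2, and 1 had an unadjusted p under 0.05, in the lower direction.

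Among the activators, PSME2 rose and showed the largest log2 fold change of the 42 genes. PSME2 encodes the beta subunit of PA28 and is ENSSSCG00000002004, on chromosome 7 from 75154649 to 75157870 on the plus strand. PSME2 had 34.1 and 27.7 CPM in siYTHDF2 cells and 17.9 and 24.3 CPM in control cells. The groups did not overlap, but siYTHDF2 replicate 2 and control replicate 2 were close. Its log2 fold change was 0.55 (SE 0.16, adjusted p = 0.0372). The call was lost without control replicate 1 (0.35, adjusted p = 0.147), and likewise without siYTHDF2 replicate 1 (0.39, adjusted p = 0.136).

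PSME1, which encodes the alpha subunit of PA28, lies 3956 bases from PSME2. It had 58.7 and 51.9 CPM in siYTHDF2 cells and 45 and 56.1 CPM in control cells, with overlapping groups (log2 fold change 0.13, SE 0.11, adjusted p = 0.482). PSME4, the activator PA200, was not called either, at 0.07 on the log2 scale (SE 0.06, adjusted p = 0.493).

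PSME3 and PSMF1 stood apart because their siYTHDF2 replicates disagreed. PSME3, the nuclear PA28 gamma, had 183 and 97.8 CPM in siYTHDF2 cells and 152 and 150 CPM in control cells. This 1.88-fold gap between siYTHDF2 replicates was the largest of the 42 genes, whose median gap was 1.08-fold. The PSME3 log2 fold change of -0.10 (SE 0.40, adjusted p = 0.906) was -0.63 without siYTHDF2 replicate 1 (adjusted p = 7.77e-05). It was 0.28 with siYTHDF2 replicate 2 left out (adjusted p = 0.05007). PSMF1, the proteasome inhibitor PI31, had 21.4 and 33.3 CPM in siYTHDF2 cells and 20.4 and 17.6 CPM in control cells. Its siYTHDF2 replicate 1 was close to the control libraries and replicate 2 was above all others. The log2 fold change was 0.53 (SE 0.19, adjusted p = 0.0752) and was called by DESeq2 (adjusted p = 0.0263). Without siYTHDF2 replicate 1 it was 0.81 (adjusted p = 0.000421). With siYTHDF2 replicate 2 left out instead, it was 0.17 (adjusted p = 0.536). The direction of PSME3 and the size of PSMF1 thus depended on which siYTHDF2 library was used.

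PSMG1, a core assembly chaperone, had 49.1 and 48.3 CPM in siYTHDF2 cells and 33.1 and 39.9 CPM in control cells, with no overlap (log2 fold change 0.41, SE 0.10, adjusted p = 0.0221). Without control replicate 1 the call was lost (adjusted p = 0.118). Leaving out siYTHDF2 replicate 1 made it marginal (adjusted p = 0.04998). PSMG2, its partner in a heterodimer, had 43.8 and 42.7 CPM in siYTHDF2 cells and 34.1 and 39.6 CPM in control cells and was not called (log2 fold change 0.23, SE 0.10, adjusted p = 0.136). PSMG3 had 8.02 and 7.6 CPM in siYTHDF2 cells and 6.85 and 9.79 CPM in control cells, so the groups overlapped.

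The base assembly chaperones PSMD5 and PSMD9 rose as well. PSMD5 had 110 and 111 CPM in siYTHDF2 cells and 85 and 97.4 CPM in control cells (log2 fold change 0.28, SE 0.08, adjusted p = 0.0368). PSMD9 had 54.4 and 52.9 CPM in siYTHDF2 cells and 43.3 and 44.5 CPM in control cells (log2 fold change 0.29, SE 0.08, adjusted p = 0.0318). For PSMD9 the groups were apart by more than the gaps within them, yet its call was lost in all 4 fits that left out a library. In those fits its log2 fold change ran from 0.26 to 0.31, close to the 0.29 of all libraries, with a larger SE of 0.11 or 0.12. The PSMD5 call was lost in 3 of the 4 fits and kept without control replicate 2. Its log2 fold change ran from 0.18 to 0.28 where the call was lost. PSMD10, the chaperone gankyrin, had 41 and 37.8 CPM in siYTHDF2 cells and 35.9 and 40.5 CPM in control cells and was not called.

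Levels can be compared between genes only per length, as FPKM averaged over the 4 libraries. PSMD2 was highest at 140 FPKM, followed by PSMB7 at 118, PSMB4 at 117 and PSMB1 at 101. PSMB8 at 1.55 and PSMB9 at 0.893 FPKM were lowest. Subunits that occur once per ring did not have equal levels. In the alpha ring PSMA7 stood at 91.3 and PSMA5 at 91.2 FPKM, whereas PSMA2 stood at 23.2 and PSMA4 at 13.8 FPKM. In the beta ring PSMB2 stood at 10.6 FPKM beside 117 FPKM for PSMB4. These low genes also had more counts for each FPKM, a measure of the transcript length used by the authors. PSMA4 had 415, PSMB2 421 and PSMA2 364 counts per FPKM, against a median of 126 over the 42 genes and 59.4 for PSMB4. Across the 42 genes FPKM and counts per FPKM had a Spearman rho of -0.47, given as a description, since FPKM enters both. On the CPM scale, which does not correct for length, PSMA4 had 117 and 107 CPM in siYTHDF2 cells, close to PSMA5 at 131 and 119 CPM. The log2 fold change had a rho of 0.06 with FPKM and of -0.20 with counts per FPKM across the 42 genes, again as a description.

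**Figure D4:**
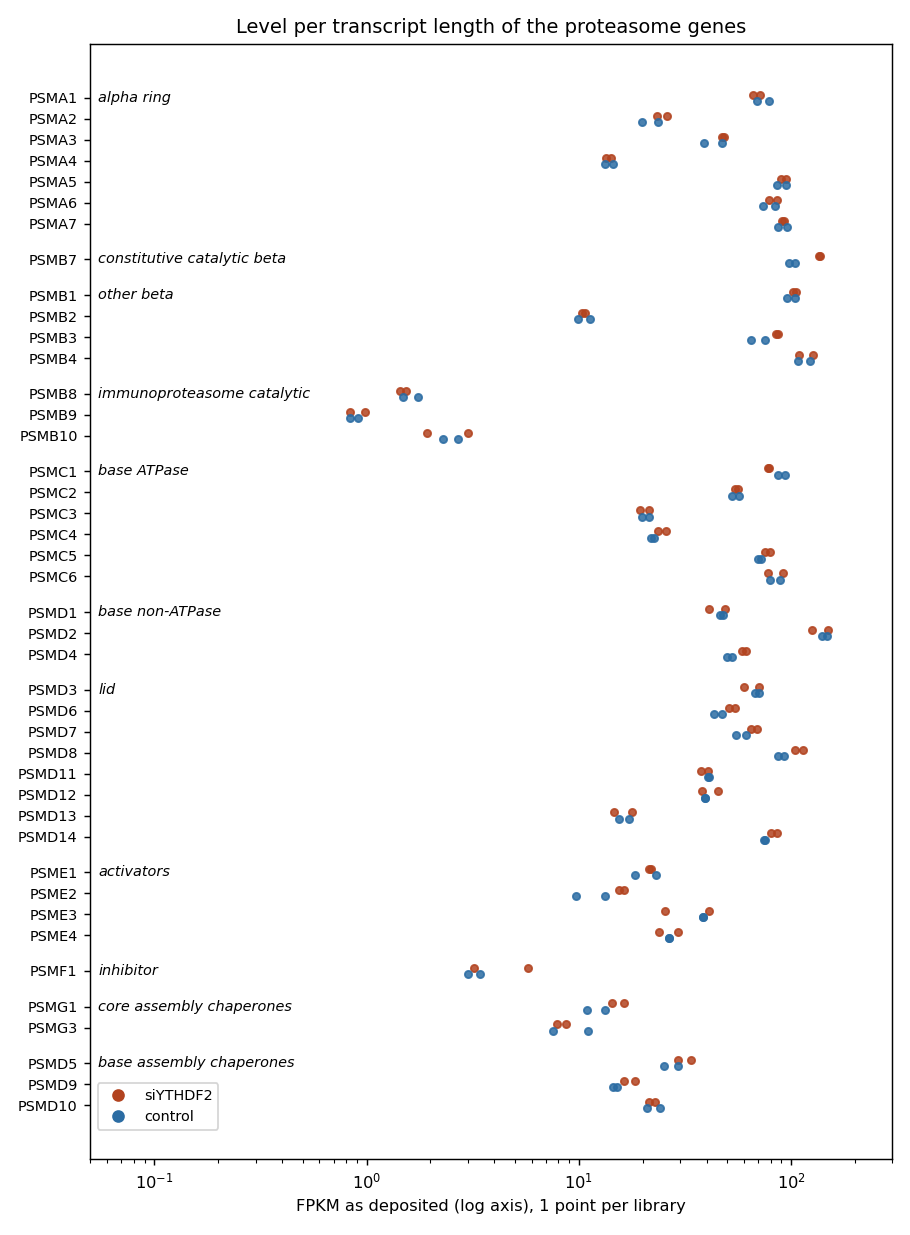
Deposited FPKM of the 42 proteasome genes on a log axis, 1 point per library, grouped by class, with siYTHDF2 points drawn above control points. PSMD2 is highest at a mean of 140 FPKM and the immunoproteasome genes PSMB8, PSMB9 and PSMB10 are lowest, between 0.893 and 2.48 FPKM.

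Over 4 lists of the wider ubiquitin system and its regulators, 3 of 42 tested genes were higher (7.14%) and 5 were lower (11.9%), near the 9.05% and 10.6% of all genes tested. Of 10 tested proteasome-bound and maturation factors 1 was higher, none was lower, and 2 were higher at an unadjusted p under 0.05. UCHL5, a deubiquitinase that docks on the cap, had 118 and 114 CPM in siYTHDF2 cells and 88.1 and 95.9 CPM in control cells (log2 fold change 0.34, SE 0.07, adjusted p = 0.0114). Its call was lost without control replicate 1 (adjusted p = 0.0534). ADRM1, the other main ubiquitin receptor of the cap, and POMP, which guides core maturation, had log2 fold changes of -0.03 and 0.16 and were not called. Of 5 tested ubiquitin and E1 genes 1 was higher. It was RPS27A, which encodes ubiquitin fused to a ribosomal protein, at 0.28 on the log2 scale (adjusted p = 0.0222), and its call was lost without control replicate 1 (adjusted p = 0.124), and likewise without siYTHDF2 replicate 1 (adjusted p = 0.15).

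Of 13 tested genes for ubiquitin shuttles and the VCP segregase 1 was higher and 2 were lower. UFD1, a VCP cofactor, was higher at 0.31 (SE 0.08, adjusted p = 0.0258), with the call lost without control replicate 1 (adjusted p = 0.0892), and likewise without siYTHDF2 replicate 1 (adjusted p = 0.192). UBXN4, another VCP cofactor, was lower, at a log2 fold change of -0.47 with an adjusted p of 0.00131. The shuttle gene UBQLN2 fell by 0.46, a call lost without control replicate 1 (adjusted p = 0.0932), and likewise without siYTHDF2 replicate 2 (adjusted p = 0.0792).

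Of 14 tested transcriptional regulators of proteasome genes none was called higher and 3 were called lower by edgeR, as by DESeq2. Over all genes tested edgeR called 9.05% higher and 10.6% lower. At an unadjusted p under 0.05, 1 regulator was higher and 5 were lower, against 16.1% and 16.9% of all genes tested. NFE2L1, which drives proteasome genes when proteasome activity is limiting, had 338 and 326 CPM in siYTHDF2 cells and 394 and 361 CPM in control cells (log2 fold change -0.18, SE 0.07, adjusted p = 0.091). NFE2L2 had 124 and 122 CPM in siYTHDF2 cells and 122 and 122 CPM in control cells. The lower genes were NGLY1, whose product processes NFE2L1, NFYA, a subunit of the CCAAT-binding factor, and FOXO4, with log2 fold changes of -0.28, -0.32 and -0.61. Each of these calls was lost in at least 2 of the 4 fits that left out a library (adjusted p from 0.0818 to 0.168 where lost).

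**Figure D5:**
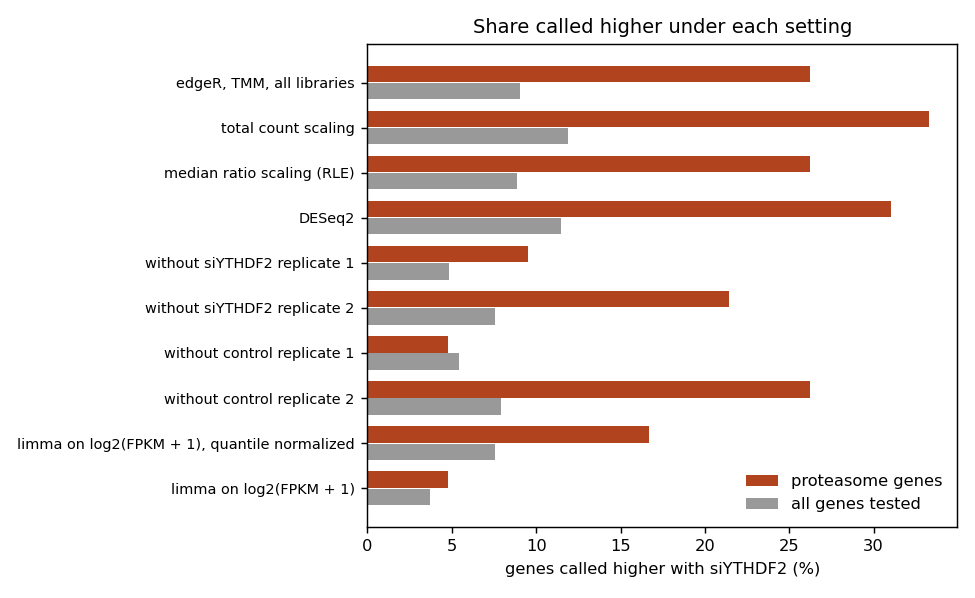
Share of genes called higher in siYTHDF2 cells under the settings named on the axis, for the 42 proteasome genes above and for all genes tested below it in each pair of bars. The proteasome share is 26.2% with all libraries, 9.52% without siYTHDF2 replicate 1 and 4.76% without control replicate 1, where the share of all genes is 5.42%.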

How the data were processed

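Per the labels' protocols, Trizol was used for extraction and TruSeq for library preparation, in text that also mentions retinas. Bowtie 0.12.2 and a mouse build stand in the submitters' processing notes, whereas the deposited table holds pig gene identifiers, so aligner, counting, strand use and build are not given in the sources used here. The authors deposited counts per gene and library and FPKM per gene and library, per the file headers. In control replicate 1 the deposited counts hold 682 genes at a count of 4 and 274 at 3. Relative to control replicate 1, the median count over FPKM was 1.015 in siYTHDF2 replicate 1 while its total was 0.885, so the deposited FPKM keep the difference in library totals.

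Counts were tested with edgeR 4.0.16 in R 4.3.3 (expression filter, TMM, robust two-sided quasi-likelihood test, Benjamini-Hochberg over 15552 genes). CPM use the TMM factors. Alternatives were limma 3.58.1 on FPKM, DESeq2 1.42.0, other scalings, no filter, a replicate block and each library left out. The test was tried on simulated counts first. Groups came from the titles. The members, lists and classes were chosen with earlier results of these data known. Every member is accounted for, and outside them YTHDF2 and up to 4 called genes with the smallest p per list of related genes were to be named, not those of the marker lists; other genes were chosen after their values were seen. The planned ratio of PSMB8 to PSMB5 was not computed. No sequence is shown, since none was used here. Depth was 47209177 to 54841851 counts per library. One gene of the interferon response list is not reported here by name.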

Additional observations from a re-analysis of the deposited data

How the results depend on the processing

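The median log2 fold change of the 42 proteasome genes was positive under every alternative run, from 0.02 in limma on log2(FPKM + 1) to 0.18 without control replicate 2, and it was 0.11 as reported. The count of called proteasome genes was not stable. Leaving out each library in turn gave 2 to 11 higher and 0 to 1 lower proteasome genes, and 791 to 1287 higher genes overall. With the replicate number as a replicate block 6 proteasome genes were higher (1020 of all genes). The labels do not say that numbers pair libraries. The replicate 1 minus replicate 2 differences of the 2 groups had a weak inverse correlation (Pearson r of -0.272 across 9065 genes, which are not independent replicates). Median ratio scaling gave 11, DESeq2 13, no count filter 12 and total count scaling, chosen after seeing the data, 14 higher proteasome genes, each including the 11 reported. Limma on log2(FPKM + 1) called 2 proteasome genes and 574 genes higher, limma on log2(FPKM + 0.1) 2 and 548, and limma without a filter 0 proteasome genes, 246 genes higher and 753 lower. These FPKM keep the lower total of siYTHDF2 replicate 1. After quantile normalization, also chosen after seeing the data, limma called 7, all among the 11. Scaling moved the median of all genes by at most 0.04 in edgeR. Of 28 called genes examined outside the 42, 18 were called in all 4 fits without a library. With 2 libraries a group, genes near 1 CPM such as PSMB9 (SE 0.39) could not show changes of the size reported for abundant subunits.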

Other observations

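The COP9 signalosome is a relative of the proteasome lid that removes the ubiquitin-like protein NEDD8 from cullins. Of its 9 tested genes 2 were higher in siYTHDF2 cells and none was lower in edgeR, 4 were higher and none lower at an unadjusted p under 0.05, and DESeq2 also called 2 higher. Over all genes tested 9.05% were called higher and 16.1% were higher at an unadjusted p under 0.05. COPS5, which encodes its catalytic subunit and is the counterpart of PSMD14, had 74 and 67.2 CPM in siYTHDF2 cells and 50.3 and 45.7 CPM in control cells (log2 fold change 0.56, SE 0.09, adjusted p = 0.00234). Both siYTHDF2 libraries lay above both control libraries. COPS2 had 179 and 168 CPM in siYTHDF2 cells and 135 and 143 CPM in control cells (log2 fold change 0.32, SE 0.07, adjusted p = 0.0111), a call lost without control replicate 1 (adjusted p = 0.0516), and likewise without siYTHDF2 replicate 1 (adjusted p = 0.0666). The median over the 9 genes was 0.15.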
